A study of Mus musculus with 4 samples.

Results

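The MYC, MAX and MXD network was examined in alveolar macrophages (AMs), which live in the air sacs of the lung, as a set of 10 genes: Myc, Mycl, Max, Mxd1, Mxd3, Mxd4, Mxi1, Mnt, Mlx and Mga. The family was selected on the large difference of Mxd1 between the groups compared here, and its other members were chosen by name. All 10 were found once among the 54532 genes of the count table, and 9 of them were among the 14256 genes with enough counts to be tested. Because the comparison that selected the family is the same one described below, differences of members are given as a description without p-values.

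The Control group comprised 2 libraries of AMs from mice that had received no tumor cells. The Tumor group comprised 2 libraries of AMs from mice that had carried a primary 4T1 tumor for 2 weeks. 4T1 is a breast cancer line of mouse origin, implanted here in the mammary fat pad, that can seed the lung. All mice were female and wild type (labelled WT), and the methods of the study describe its wild-type mice as BALB/c, aged 8 to 10 weeks. The study describes lung AMs isolated from such mice for imaging as CD45+ CD11b- CD11c+ SiglecF+ cells, and its text introduces the sequenced AMs together with those. The legend for these data gives the same n per group as the libraries, without saying whether a library held the cells of 1 mouse or of a pool, so the spread between 2 libraries may be technical.

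The proteins of this network pair through a basic helix-loop-helix leucine zipper and bind DNA at E-boxes, of which CACGTG is the preferred form. MYC and MYCL activate transcription only as partners of MAX and drive ribosome production, metabolism and entry into the cell cycle. The MXD proteins (MXD1, MXD3, MXD4 and MXI1) and MNT compete for MAX and recruit the SIN3-HDAC corepressor to the same sites. MGA joins MAX to a Polycomb complex, and MLX pairs with the glucose-sensing Mondo proteins as well as with some MXD proteins and MNT. MXD1 is known for its induction as myeloid cells leave the cycle and mature, above all in granulocytes. In macrophages, Myc is part of a set of genes linked to self-renewal.

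The members lay on 9 chromosomes, and the coordinates below are those of the deposited table, which match build GRCm38 except for the start of Mxi1. Mxd1 (ENSMUSG00000001156) occupied chromosome 6 from 86647042 to 86669161 on the minus strand, Myc (ENSMUSG00000022346) chromosome 15 from 61985391 to 61990374 on the plus strand, and Max (ENSMUSG00000059436) chromosome 12 from 76937269 to 76962201 on the minus strand. Mnt and Mlx shared chromosome 11. The other members lay on chromosomes 2 (Mga), 4 (Mycl), 5 (Mxd4), 13 (Mxd3) and 19 (Mxi1). The longest annotated proteins were short for the MXD group, with 227 residues for Mxd1, 206 for Mxd3, 209 for Mxd4 and 295 for Mxi1. They had 160 residues for Max, 454 for Myc, 591 for Mnt and 3042 for Mga.

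E-boxes were looked for in the promoters of the members, because the network binds this motif and the search does not use the expression values. RefSeq promoters of GRCm38.p6, each covering 250 bases before to 50 bases after a transcript start, were used for the 9 members other than Myc. CACGTG, which reads the same on both strands, was present in 4 of the 9, namely Max, Mxd4, Mnt and Mlx. The motif was held by 8.09% of all 27025 genes with a promoter, and of all 32851 promoters of this length 7.15%. The stretches around the 4 matches are shown here because they place the site of the network in genes of the network, with the E-box in capitals, in the direction of transcription and ending no later than the transcript start or the end of the motif.

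Max, chr12:76962246-76962278, minus strand, E-box beginning 3 bases before the start: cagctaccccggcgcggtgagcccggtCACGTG
Mxd4, chr5:34187897-34187956, minus strand, E-box beginning 219 bases before the start: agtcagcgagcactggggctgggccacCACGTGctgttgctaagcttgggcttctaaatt
Mnt, chr11:74830774-74830833, plus strand, E-box beginning 123 bases before the start: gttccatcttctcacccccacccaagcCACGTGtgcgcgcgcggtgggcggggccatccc
Mlx, chr11:101087223-101087282, plus strand, E-box beginning 40 bases before the start: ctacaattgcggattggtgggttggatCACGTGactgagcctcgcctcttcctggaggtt

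The match in Max spans the RefSeq transcript start, which lies outside the span of Max in the deposited table and was not found among GENCODE transcripts, and those in Mlx, Mnt and Mxd4 lie progressively farther upstream. The promoters of Mxd1, Mxd3, Mycl and Mga and the 3 promoters of Mxi1 did not hold these letters. A match is a run of letters and not a measured binding site.

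The libraries held between 16167147 and 19205737 counts. Levels are given as CPM (counts per 1e6 counts after TMM scaling of the library sizes), and levels of different genes are compared as CPM per kb of gene length. A value of 3 counts or fewer was taken as the floor, 0.153 to 0.190 CPM depending on the library, which covers counting error only. Replicates of a group correlated at 0.994 (Control) and 0.992 (Tumor) in log2 CPM across genes. AM identity markers were detected in all libraries, with none of the 14 at the floor. Their summed level was 16427 and 16572 CPM in the Control and 12565 and 12707 CPM in the Tumor libraries. Levels of single markers differed widely, and the lowest, Fabp4, had 25.3 ± 2.50 CPM in Control and 5.79 ± 0.472 CPM in Tumor (SD, n = 2). In bulk RNA, fewer cells of a type and less RNA per cell cannot be told apart.

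Levels in the Control libraries do not involve the comparison of groups and were ordered first. Max and Mlx, the partners shared by several family members, were highest, at 14.0 ± 0.190 and 13.8 ± 0.279 CPM per kb (SD, n = 2), and their libraries overlapped. Mxi1, Myc and Mxd4 followed at 9.90 ± 1.09, 9.20 ± 0.346 and 8.87 ± 0.410 CPM per kb (SD, n = 2), and neighbours in this order overlapped. Mxd1 came next at 8.20 ± 0.0389 CPM per kb (SD, n = 2), just below the lower Mxd4 library. Mga and Mnt stood at 6.93 ± 0.307 and 5.46 ± 0.0723 CPM per kb (SD, n = 2). Thus 8 members lay between 5.46 and 14.0 CPM per kb in Control AMs.

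Mxd3 and Mycl were scarce in these cells. Mxd3, an MXD gene tied to the S phase of dividing cells, was at 0.446 ± 0.0886 CPM per kb in the Control libraries (SD, n = 2). Mycl, a MYC relative known from dendritic cells, was at 0.0553 ± 0.0339 CPM per kb (SD, n = 2). Division by length mattered for this order. In plain CPM, Mga, whose merged exons span 15340 bases, ranked highest of the 10 in the Control libraries and Max ranked 5.

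Mxd1, the gene on which the family was selected, had 1083 and 918 counts in Control against 15590 and 17569 in Tumor. These were 57.8 and 58.2 CPM against 900.3 and 895.4 CPM. Both Tumor libraries stood far above both Control libraries, and replicates nearly coincided. The ratio of the group means was 15.5, and the log2 fold change was 3.95 ± 0.0310 (SE). Among the 14256 genes tested, ordered from the highest log2 fold change, Mxd1 was number 638. Its level per length moved from the 65.0th to the 97.5th percentile of these genes. A predicted gene inside an intron of Mxd1, Gm44292, on the same strand, had 6 and 7 counts in the Control and 113 and 154 in the Tumor libraries. Neutrophil markers moved with Mxd1, with a summed level of 113.9 and 113.7 CPM in Control and 4511 and 4495 CPM in Tumor, and their part in its difference was not tested.

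Myc, the activator of the network, had 25.7 and 24.3 CPM in the Control and 51.9 and 49.4 CPM in the Tumor libraries. The log2 fold change was 1.02 ± 0.0767 (SE), a ratio of means of 2.03. Max, its obligate partner, had 50.9 and 49.9 CPM against 98.2 and 99.5 CPM, with a log2 fold change of 0.97 ± 0.0527 (SE). Mnt, the most broadly expressed MAX-binding repressor, had 25.5 and 25.03 CPM against 49.0 and 49.5 CPM, with a log2 fold change of 0.96 ± 0.0757 (SE). The values of Myc, Max and Mnt thus differed by a similar factor between groups, with log2 fold changes that differed by no more than their standard errors, and in none of the 3 did the groups overlap.

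Mxi1, an MXD repressor, had 51.3 and 59.9 CPM in the Control and 97.6 and 93.3 CPM in the Tumor libraries, with a log2 fold change of 0.78 ± 0.0601 (SE). Mxd4, the MXD repressor with the largest Control count, had 72.8 and 77.7 CPM against 97.9 and 95.4 CPM, with a smaller log2 fold change of 0.36 ± 0.05 (SE). Both groups were separate for both genes. Mxd3 had 17 and 19 counts in the Control and 32 and 27 in the Tumor libraries, a log2 fold change of 0.61 ± 0.382 (SE) that did not pass the threshold. It ranged from 0.39 without Tumor replicate 1 to 0.82 without Tumor replicate 2, and under scaling on AM identity markers it was 1.10 and was called. Its gene also overlaps Prelid1, a far more abundant gene on the opposite strand with 2635 to 3548 counts, so that its few counts are uncertain where strand was not used in counting. Mycl had 6 and 2 counts in the Control and 7 and 18 in the Tumor libraries, too few to be tested.

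Mga and Mlx, which link the network to a Polycomb complex and to the Mondo proteins, had lower values in the Tumor libraries under TMM scaling. Mga had 109.6 and 103.0 CPM in the Control and 93.4 and 95.1 CPM in the Tumor libraries, with a log2 fold change of -0.17 ± 0.0463 (SE). Mlx had 27.2 and 27.9 CPM against 24.6 and 22.2 CPM, with a log2 fold change of -0.24 ± 0.0901 (SE). Neither gene overlapped between groups, but both differences were small, and under scaling on the AM identity markers they turned to 0.32 for Mga and 0.26 for Mlx. With total counts as library sizes neither was called, at -0.11 and -0.17. Without Control replicate 1 neither was called, and Mlx also lost its call without Control replicate 2 or Tumor replicate 2 and with the DESeq2 Wald test. Mlx overlaps Psmc3ip on the opposite strand, which had 17 to 28 counts.

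**Figure D1:**
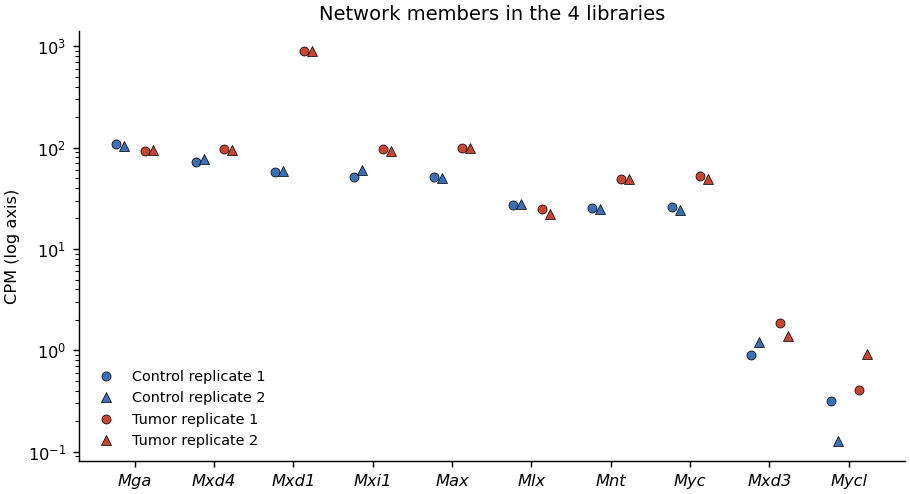
TMM-scaled CPM on a log axis for the 10 members in each library, ordered by the Control mean (blue, Control; red, Tumor; circles, replicate 1; triangles, replicate 2). Mxd1 is at 57.8 and 58.2 CPM in Control and at 900.3 and 895.4 CPM in Tumor, while Myc, Max and Mnt are also higher in Tumor and Mga and Mlx lie slightly lower.

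By the edgeR quasi-likelihood test with an adjusted p under 0.05, 6 of the 9 tested members were called higher in the Tumor libraries (Mxd1, Myc, Max, Mnt, Mxi1 and Mxd4) and 2 lower (Mga and Mlx). Of all genes tested, 29.0% were called higher and 24.8% lower. Higher calls were 53.9% of all calls under TMM scaling and 93.2% under scaling on AM identity markers. In CPM, both Tumor libraries lay above both Control libraries for 7 of the 9 tested members, against 39.3% of all genes tested, and below them for 2, against 35.8%. The median log2 fold change of the 9 was 0.78, beside 0.02 for all genes tested. Nothing is read from these counts, since the family was chosen on this comparison. They depended on the scaling for the small differences, since scaling on AM identity markers gave 9 members higher and 0 lower. With that scaling the median over all tested genes went from 0.02 to 0.51 (log2), and the values of Mlx and Mga were below this median.

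**Figure D2:**
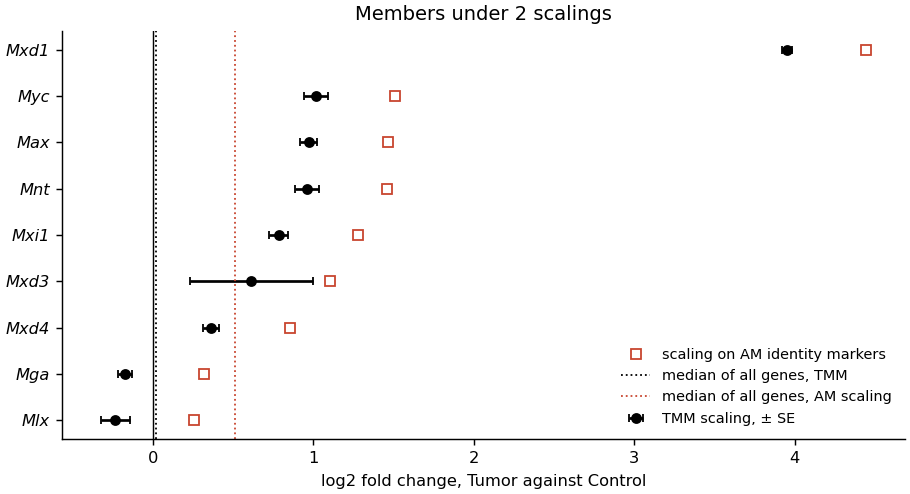
Log2 fold changes, Tumor against Control, of the 9 tested members under TMM scaling (black points with SE) and under scaling on AM identity markers (red squares), with the median of all genes tested under each scaling as dotted lines. Mxd1 stands at 3.95, Myc, Max and Mnt lie between 0.96 and 1.02, and only Mga and Mlx change sign between the scalings.

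The makeup of the network was described by the share of each role in the summed level, in which the weight of Mxd1 follows from how the family was selected. Summed over the 10 members, the level was 76.2 and 77.5 CPM per kb in the Control and 232.5 and 229.1 CPM per kb in the Tumor libraries. Mxd1 held 10.7% and 10.6% of this sum in Control against 54.8% and 55.3% in Tumor. The other MXD genes together held 23.8% and 26.2% against 12.8% and 12.4%, although their summed level was higher in the Tumor libraries (29.7 and 28.4 against 18.1 and 20.3 CPM per kb). Myc and Mycl held 12.5% and 11.6% against 8.26% and 8.03%. Without division by length the share of Mxd1 went from 13.7% and 13.6% to 63.6% and 63.9%.

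Ratios of levels between members do not depend on the scaling of libraries. The level of Mxd1 per unit of Max, both in CPM per kb, was 0.578 and 0.593 in the Control and 4.66 and 4.58 in the Tumor libraries. The level of Mxd1 per unit of Myc was 0.865 and 0.918 against 6.66 and 6.97. By contrast, Myc per unit of Max was 0.668 and 0.645 against 0.700 and 0.657, so that the groups overlapped. Myc per unit of Mnt was 1.71 and 1.66 against 1.81 and 1.70, again with overlap. Transcripts of Myc, Max and Mnt therefore kept near-constant proportions, while Mxd1 went from below Myc and Max to above both. With 2 libraries a group an exact permutation test cannot reach a p of 0.05, and these ratios are a description of RNA and not of protein dimers.

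**Figure D3:**
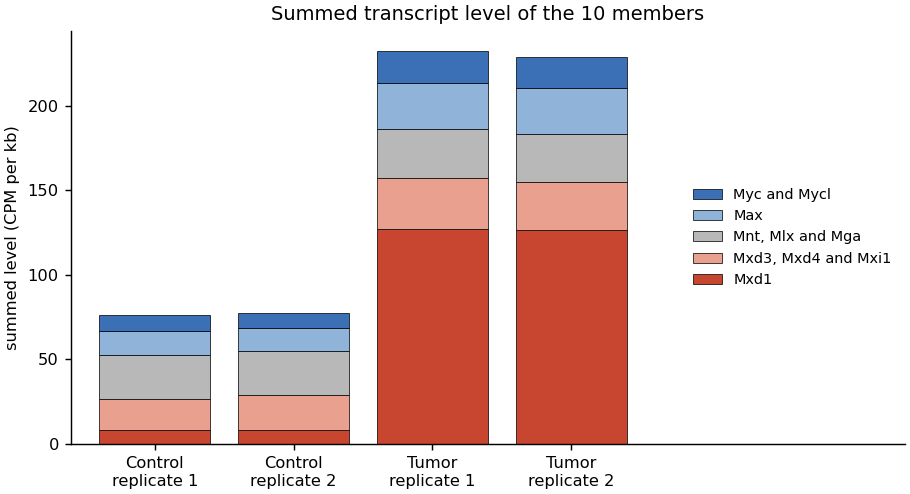
Summed level (CPM per kb, linear axis from 0) of the 10 members in each library, stacked by role. The sum goes from 76.2 and 77.5 in Control to 232.5 and 229.1 in Tumor, and the Mxd1 segment from 8.17 and 8.22 to 127.3 and 126.6.

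Genes around the network were then examined, from lists of genes that are not members. Ribosome production is the best known output of MYC. Of 20 genes of rRNA processing and ribosome assembly that MYC is known to induce, all were tested. In the Tumor libraries 16 were called lower and 0 higher, beside 24.8% and 29.0% of all genes tested. The other 4 were not called, and the median log2 fold change of the list was -0.35. Nop2, an rRNA methyltransferase, fell from 64.8 ± 2.13 to 34.4 ± 0.0883 CPM (SD, n = 2), which is -0.91 ± 0.0661 (SE) as a log2 fold change with an edgeR adjusted p = 1.89e-12. Among the others, Gnl3, which encodes nucleostemin, changed by -0.76 and Nop58, a box C/D snoRNP protein, by -0.63. Scaling on AM identity markers gave 10 genes of this list higher and 5 lower, with 93.2% of the 10685 calls over all genes higher.

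Of 20 MYC-induced genes of metabolism and growth, 19 were tested. Of these, 10 were called lower and 1 higher, beside 24.8% and 29.0% of all genes tested. Ccnd2, which encodes cyclin D2, fell from 820.9 ± 6.74 to 261.4 ± 0.171 CPM (SD, n = 2), which is -1.65 ± 0.0250 (SE) as a log2 fold change with an edgeR adjusted p = 4.28e-28. Eif4e, the cap-binding translation factor, changed by -0.90. Scaling on AM identity markers gave 14 of these genes higher and 3 lower, again with 93.2% of the calls over all genes higher. The called rise was that of Hspd1, a mitochondrial chaperonin, at 0.09 ± 0.0354 (SE), and it was lost with DESeq2, with no filter and without Control replicate 2, Tumor replicate 1 or Tumor replicate 2. Tert was not tested, with at most 7 counts.

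Over both lists, 26 of 39 tested genes were called lower and 1 higher under TMM scaling, beside 24.8% lower and 29.0% higher among all genes tested. Total counts as library sizes, where 62.7% of calls over all genes were higher, gave 19 lower and 4 higher in these lists. Scaling on AM identity markers, where 93.2% of 10685 calls over all genes were higher, gave 8 lower and 24 higher in these lists. The median log2 fold change was -0.25 under TMM scaling and 0.24 under scaling on AM identity markers. Relative to the median of all genes tested, it was -0.27 under both. By size the falls were mostly small, since Ccnd2 was the 1 gene of the 39 to change by at least 2-fold. Myc was higher in Tumor under both scalings, while the counts of listed genes called lower or higher depended on the scaling, as given above. This RNA comparison did not test binding by any member. CACGTG was found in promoters of 10 of the 34 genes of these lists that had a promoter in the table, beside 8.09% of all genes with one. It was found in 5 of 20 among the genes called lower and 4 of 12 among those not called. The broader form CANNTG, where N is any base, was found in 21 of the 34, beside 75.0% of all genes. It was in 10 of 20 among those called lower and 9 of 12 among those not called.

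Genes that MYC represses with its partner MIZ1 moved in both directions. Of the 5 genes, 3 were called higher and 1 lower, beside 29.0% and 24.8% of all genes tested. Gadd45a, a growth arrest gene, rose from 55.8 ± 0.546 to 108.0 ± 0.723 CPM (SD, n = 2), which is 0.95 ± 0.0502 (SE) as a log2 fold change. Ndrg1 rose by 1.24 ± 0.132 and Ndrg2, with 4 counts in each Control library against 209 and 245 counts in Tumor, by 5.69 ± 0.285 on the log2 scale (SE), although Ndrg2 could pass the filter on low counts only through the Tumor libraries. Cdkn1a, which encodes the cell cycle inhibitor p21, changed by -0.34 ± 0.0284 (SE), but by 0.15 under scaling on AM identity markers. The log2 fold change of Cdkn2b, with 20 to 49 counts, was -0.43 ± 0.345 (SE) and did not pass the test. It was 0.0736 without Tumor replicate 2 and -1.14, which was called, without Tumor replicate 1.

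Median log2 fold changes of the cofactor lists lay close to that of all genes tested (0.02), at -0.02 for the SIN3-HDAC list, 0.02 for coactivators and -0.08 for Polycomb partners, with 0.29 for MYC stability. The counts of calls below are under TMM scaling, to be read beside 29.0% higher and 24.8% lower among all genes tested. Scaling on AM identity markers called 10685 of the 14256 genes tested, with 93.2% of these calls higher. It gave 7 higher in the SIN3-HDAC list, 9 among coactivators and 8 for MYC stability. Among Polycomb partners it gave 7 higher and among cell cycle genes 6, with 0 lower in each of these lists. In the SIN3-HDAC list 2 of 8 genes were called higher (Sin3a and Ncor1) and 2 lower (Hdac1 and Rbbp7). Sin3a, the scaffold that binds MXD proteins, rose by 0.45 ± 0.0654 (SE), with an edgeR adjusted p = 1.17e-06, and Rbbp7, a histone-binding subunit, changed by -0.47 ± 0.0503 (SE), or by 0.02 and no longer called under scaling on AM identity markers. Among 9 coactivators of MYC, 2 were called higher, among them Wdr5, and 1 lower (Actl6a). Actl6a, a chromatin remodelling subunit, changed by -0.23 ± 0.0850 (SE), was not called with DESeq2, with total counts or without Control replicate 1, Control replicate 2 or Tumor replicate 1, and was 0.27 under scaling on AM identity markers.

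Of 9 genes that act on MYC stability or encode MIZ1, 4 were called higher (Pim1, Aurka, Usp28 and Gsk3b) and 2 lower (Huwe1 and Zbtb17). The lower calls were 1 with DESeq2, with total counts, and without Control replicate 1 or Tumor replicate 2. Pim1, a kinase that stabilises MYC and is induced by STAT5, rose from 460.9 ± 1.71 to 955.4 ± 17.1 CPM (SD, n = 2), which is 1.05 ± 0.0230 (SE) as a log2 fold change. Huwe1, a ubiquitin ligase that acts on MYC, fell by 0.54 ± 0.0265 on the log2 scale (SE), but was not called under scaling on AM identity markers. Fbxw7, the best studied MYC ubiquitin ligase, had a log2 fold change of 0.19 and did not pass.

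The Polycomb complex that MGA joins, PRC1.6, had 4 of 9 partner genes called higher (Cbx3, Tfdp1, Rnf2 and Yaf2) and 2 lower (Ring1 and L3mbtl2). The lower calls were 0 without Control replicate 1 and 1 without any other single library, with DESeq2, with total counts, with the replicate block, with no filter or with a minimum of 10 counts in each library, and DESeq2 called 2 higher. Cbx3 rose by 0.54 ± 0.109 and Ring1 changed by -0.33 ± 0.0970 (SE), the latter by 0.16 under scaling on AM identity markers.

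In the Mondo arm, with which MLX works, the 3 genes with counts in Control, Txnip, Arrdc4 and Mlxip, were called higher. Txnip, the classical glucose-responsive target of the Mondo proteins, rose from 106.6 ± 3.02 to 363.3 ± 3.87 CPM (SD, n = 2), which is 1.77 ± 0.0341 (SE) as a log2 fold change with an edgeR adjusted p = 1.05e-25. Arrdc4, a relative of Txnip with the same control, rose by 0.76 ± 0.0599 (SE). Mlxip, which encodes MondoA, rose by 0.16 ± 0.0387 (SE). Mlxipl, which encodes the liver protein ChREBP, was at 0 counts in Control and at 10 and 18 counts in Tumor, which is at least 3.04-fold higher against the floor of 3 counts per library. It could enter the test only through the Tumor libraries. Pklr, the liver pyruvate kinase, was counted 2 and 6 times in Tumor and 0 times in Control. Hepatocyte markers moved in the same direction, as described below.

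Regulators of macrophage self-renewal were measured beside Myc. Klf2 rose from 50.9 ± 1.69 to 173.9 ± 1.22 CPM (SD, n = 2), which is 1.77 ± 0.0458 (SE) as a log2 fold change, and Klf4 rose by 0.43 ± 0.0341 (SE). Maf, whose product holds back self-renewal, was scarce, with 28 to 41 counts, and did not pass the test, with a log2 fold change of -0.01 ± 0.297 (SE). Of 6 cell cycle genes, 2 were called higher (Cdk1 and Mcm5) and 2 lower (Mki67 and Pcna). Mki67, a marker of dividing cells, changed by -0.33 ± 0.0409 (SE), or by 0.16 under scaling on AM identity markers. Cdk1 rose by 0.47 ± 0.144 (SE) and was not called with DESeq2, which called 0 of the 6 higher.

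**Figure D4:**
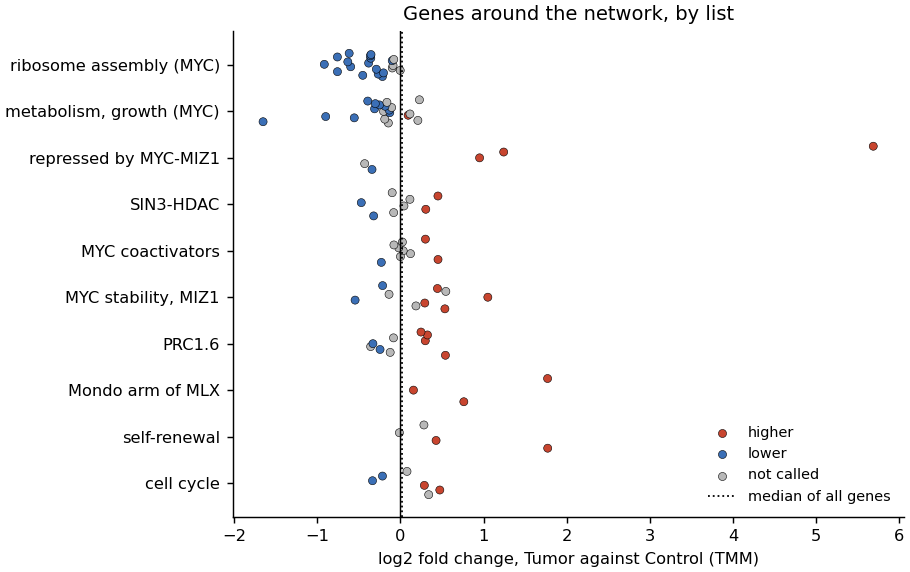
Log2 fold changes, Tumor against Control under TMM scaling, of tested genes in the 10 lists around the network, one point per gene (red, called higher; blue, called lower; grey, not called; dotted line, median of all genes tested at 0.02). Most points of both MYC-induced lists lie below 0, and Mlxipl, which was at the floor in Control, is not drawn.

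Granulocyte genes changed in the same libraries as Mxd1. All 12 neutrophil markers were called higher in the Tumor libraries. Markers near the floor in Control could pass the filter on low counts only by being high in Tumor, so tallies of their calls are not evidence of direction, and levels are given instead. In the Control libraries 5 of the 12 (Ngp, Camp, Mpo, Elane and Ly6g) were at the floor, Elane at 0 in both. S100a9 rose from 0.669 ± 0.0402 to 1086 ± 22.4 CPM (SD, n = 2). The 5 eosinophil markers had a summed level of 0.480 and 0.507 CPM in Control and 2224 and 2204 CPM in Tumor, and 3 of the 5 were at the floor in Control, among them Prg2. The 6 basophil and mast cell markers had sums of 0.747 and 0.950 against 102.8 and 95.4 CPM, and 5 at the floor in Control.

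Of 10 hepatocyte markers 9 stood at the Control floor and 7 at 0. Their summed level was 0.640 and 1.08 CPM in Control and 675.8 and 682.0 CPM in Tumor, with albumin (Alb) at 470.5 ± 9.10 CPM in Tumor (SD, n = 2). The 8 lymphocyte markers had sums of 5.39 and 6.65 CPM in Control against 17.1 and 16.7 CPM in Tumor, with 2 of them (Nkg7 and Ncr1) at the floor in Control. Of 8 monocyte and interstitial macrophage markers 2 were called higher and 6 lower, beside 29.0% and 24.8% of all genes tested. Cd14 was at -0.30, or 0.20 under scaling on AM identity markers. Of the 14 AM identity markers 1 was called higher and 12 lower, beside the same shares, with a median log2 fold change of -0.46. Chil3, the one with the highest Tumor count, went from 5168 ± 102 to 3780 ± 163 CPM (SD, n = 2). Neutrophils and eosinophils carry CD11b and hepatocytes lack CD45, while the gate named above for imaging takes CD45+ CD11b- cells. The sequencing methods of the study say only that AMs were purified, without naming a gate. The part of all these cells in the values of Mxd1, the other members and the genes of the lists around the network was not tested.

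The gene with the profile nearest to Mxd1 over the 4 libraries was Csf3r, the receptor of the granulocyte growth factor G-CSF, which is one of the neutrophil markers. The Euclidean distance in log2 CPM was 0.686. Csf3r went from 65.8 ± 0.255 to 657.8 ± 14.4 CPM (SD, n = 2), which is 3.32 ± 0.0331 (SE) as a log2 fold change. The next nearest, at distances of 2.22 and 2.30, were Txnip and the mitochondrial rRNA gene mt-Rnr1, both with smaller fold changes. Mxd1 and Csf3r were thus alike in being well expressed in the Control libraries, where most granule genes were at or near the floor. With 2 groups of 2 libraries, such likeness reflects little more than a level and a difference.

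**Figure D5:**
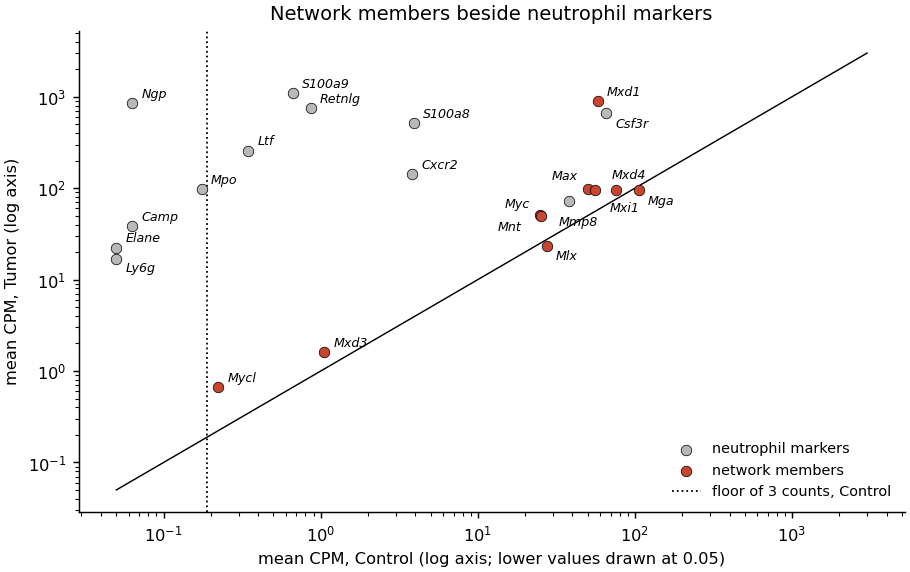
Mean CPM in Tumor against mean CPM in Control (both log axes) for the 10 members (red) and 12 neutrophil markers (grey), with the line of equal values and the Control floor of 3 counts (dotted). Mxd1 and Csf3r sit together at 58.0 and 65.8 CPM in Control, whereas Ngp, Camp, Mpo, Elane and Ly6g lie at or left of the floor.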

How the data were processed

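RNA of AMs from Control and Tumor mice was sequenced as paired-end Illumina libraries, 2 a group, of 16167147 to 19205737 counts. The authors aligned reads with HISAT2 (version 2.0.5 in the submitters' processing notes) and counted them per gene with featureCounts, and the deposited values are raw counts, with a gene length per gene as a further deposited column. Build, annotation, strand setting and treatment of multi-mapping reads are not given in the sources used here. DESeq2 is named in the submitters' notes without a role.

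From the counts, genes were kept by filterByExpr (minimum count 10), libraries were scaled by TMM, and groups were compared with the edgeR 4.0.16 quasi-likelihood test (R 4.3.3) across 14256 genes, with Benjamini-Hochberg adjustment over all of them and a threshold of 0.05. The code was tested on simulated counts. P-values measure only the spread between these libraries, since the labels do not say that they came from separate animals. Promoters came from RefSeq (GRCm38.p6). Alternatives covered DESeq2 1.42.0, limma-voom (limma 3.58.1), other scalings, filters and leaving out each library.

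The members and all gene lists were chosen with earlier results of these data known, and counts of a list are no independent support. Named were all members; from each pathway list the called genes with the largest rise and the largest fall among those whose higher group averaged 100 counts or more, and every gene of lists of 5 or fewer; from each marker list the gene with the highest mean Tumor count; and the 3 tested genes nearest to Mxd1 by Euclidean distance in log2 CPM. Other genes, such as Gnl3, Nop58, Eif4e, Fbxw7 and those that make up counts of 5 or fewer, were named after their values were seen. Some genes that this rule names are not reported here.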

Additional observations from a re-analysis of the deposited data

How the results depend on the processing

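Mxd1 kept its direction under every alternative, with a log2 fold change of 3.94 to 4.45. Scaling on AM identity markers gave 0 members lower, 24 MYC-induced genes higher and 8 lower, and 48 higher and 0 lower in the other lists, against 2, 1, 26, 23 and 10. It turned Mlx to 0.26, Mga to 0.32, Cdkn1a to 0.15, Cdkn2b to 0.0620, Rbbp7 to 0.0242, Actl6a to 0.27, Ring1 to 0.16, Maf to 0.48, Mki67 to 0.16, Cd14 to 0.20, and the log2 fold change of Chil3 to 0.0435. Chil3 is among the markers that set this scaling, so its value under it is not independent. The same scaling raised the share of higher calls among all calls from 53.9% to 93.2%, total counts to 62.7%. Total counts gave 0 members lower and 4 MYC-induced genes higher, and turned Maf to 0.0550. DESeq2 called 1 member lower and 0 MYC-induced genes higher. No filter gave 0 MYC-induced genes higher, at least 10 counts in every library gave 2 and turned Maf to 0.0127, and protein-coding genes alone gave 2. The replicate block gave 2 MYC-induced genes higher, but libraries with the same replicate number did not deviate together (correlation -0.0035) and share only a number. Requiring a log2 fold change of at least 1 left 2 members higher and 0 lower, 0 MYC-induced genes higher and 1 lower, and 6 and 0 in the other lists, with 2268 calls over all genes. Leaving out 1 library gave 6 members higher and 0 to 2 lower, 0 to 1 MYC-induced genes higher and 21 to 26 lower, and 20 to 23 higher and 7 to 9 lower in the other lists. Over the same fits the log2 fold change of Cdkn2b ran from -1.14 to 0.0736 and the log2 fold change of Maf from -0.15 to 0.15. Searching for CANNTG in place of CACGTG found 7 members, beside 75.0% of all genes with a promoter. The causes were not tested. For 9 members, 116 of 126 alternative values kept direction and call, not counting the fit that required a log2 fold change of at least 1.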
